A study of Homo sapiens with 3 samples.

Results

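Vimentin, fibronectin and the 6 transcription factors most closely tied to epithelial-mesenchymal transition (EMT) were examined in A2780 cells with exogenous miR-181a. The genes are SNAI1, SNAI2, ZEB1, ZEB2, TWIST1, TWIST2, VIM and FN1, taken by symbol as a set, and they hold 20 of the 29156 RefSeq transcript rows of the deposited table and 8 of its 18877 symbols. A2780 is a cancer cell line that came from an ovarian tumour of undifferentiated histology. One library was made from A2780 with the empty retroviral vector pBABE, and 2 libraries from A2780 expressing miR-181a, p181a#1 and p181a#2, called pool 1 and pool 2 here. The labels describe these miR-181a lines as polyclonal pools in the extraction protocol and as clones elsewhere, and all 3 libraries share the parental line and culture conditions. They do not say whether the pools came from separate cultures, so a p-value reflects only the spread between 2 libraries, and that spread may be technical.

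EMT is the programme by which cells that adhere to their neighbours lose junctions and gain motility and a mesenchymal cytoskeleton. The zinc-finger proteins of the SNAI family (SNAI1, or Snail, and SNAI2, or Slug), the zinc-finger homeodomain proteins ZEB1 and ZEB2, and the basic helix-loop-helix proteins TWIST1 and TWIST2 drive it. The SNAI and ZEB proteins repress epithelial genes such as the E-cadherin gene CDH1 from E-box sequences. VIM, which encodes the intermediate filament protein vimentin, and FN1, which encodes the matrix glycoprotein fibronectin, are the structural genes most often read as signs that the programme is on. In carcinoma cells TGF-beta signalling is a classical inducer of these factors, and SMAD7, a reported miR-181a target, inhibits that pathway.

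Because the exogenous agent is a microRNA, its sequence and its possible pairing sites in these genes are given first. The mature sequence of miR-181a-5p in RefSeq (GRCh38.p14, the same from MIR181A1 on chromosome 1 and from MIR181A2 on chromosome 9) is shown with its seed, bases 2 to 8, in capitals.
miR-181a-5p: aACAUUCAacgcugucggugagu
Matches to the seed were searched on the transcribed strand of the 3 prime UTR of the MANE Select transcript of each gene (GENCODE annotation on GRCh37). The forms counted are nested: TGAATGTA (8mer), TGAATGT (7mer-m8), GAATGTA (7mer-A1) and GAATGT (6mer), where each longer form contains the 6mer.

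Of the 8 genes, 3 held a match of at least 7 bases, ZEB2, ZEB1 and SNAI2. Among 10942 tested genes with such a UTR, 26.8% held one. The UTR of ZEB2, 5370 bases long, held 3 of them, 1 as an 8mer. The UTR of ZEB1, 2540 bases long, and that of SNAI2, 1209 bases long, held 1 7mer-A1 each, and the SNAI2 site is not printed. TWIST1 held a 6mer alone, and SNAI1, TWIST2, VIM and FN1 held none of these forms. The UTRs of the genes without a match of 7 bases were short, 287 to 830 bases against a median of 1261 over the 10942 genes. The ZEB1, ZEB2 and TWIST1 sites are shown on the transcribed strand with the match in capitals, since they are the places where these transcripts could pair with the seed.
ZEB1, chr10:31817770-31817796, plus strand: acttaaatggGAATGTAttagttttac
ZEB2, chr2:145145566-145145592, minus strand: gccaaactaaGAATGTAgttaatgagt
ZEB2, chr2:145144970-145144997, minus strand: attcagaataTGAATGTAttcgtaggtt
ZEB2, chr2:145144164-145144190, minus strand: caacaaacaaTGAATGTgcaacctaac
TWIST1, chr7:19155462-19155487, minus strand: ttttgacgaaGAATGTttttattttt
A match is a description of letters and not a measured site. ZEB2, the gene with the most matches, was close to 0 in all 3 libraries, so its transcript level could not be followed here.

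The values are coverage, the median read density over 50 bp windows along a transcript, so levels can be compared between genes of different length. No counts come with them and the depth of each library is unknown. A median is 0 when at least 50% of the windows hold no read, so reads can be present in a gene with a value of 0. Coverage summed to 719263 to 907092 over the 28848 rows with a vector value. The vector library stood apart: 12.8% of its rows were listed at 0, against 32.3% and 32.2% in the pools, and 62.9% of the 8822 rows at 0 in both pools were above 0 with the vector. Genes with a pool mean above 50 had a median log2 difference from the vector library of 0.64 in pool 1 and 0.30 in pool 2. They were chosen by the pool mean alone, a choice that favours genes higher in the pools. SMAD7 had a coverage of 58.0 with the vector, 1.87 in pool 1 and 1.56 in pool 2.

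VIM was by far the most abundant of the 8 genes and TWIST1 the most abundant factor, while FN1, SNAI1, TWIST2 and ZEB2 were at or close to 0 in the miR-181a pools. VIM and SNAI2 were higher in both pools than in the vector library, as were 44.6% of all tested genes. ZEB1 and TWIST1 had pool values on both sides of the vector value, and none of these 4 genes passed the test. The test was limma on log2(coverage + 1) with p-values adjusted over 12552 genes. Of these genes, 1.00% rose and 21.7% fell at an adjusted p of 0.05, and 2.53% met a size rule upward (1 log2 unit or more in each pool) and 27.3% met it downward. Of the 8 genes, 4 passed the filter on low values and were tested (VIM, SNAI2, ZEB1 and TWIST1). None of the 4 rose or fell by limma, and none met the size rule of 1 log2 unit in both pools. Of the 4, 0 had an unadjusted limma p under 0.05 (the lowest was 0.146, for SNAI2), beside 33.2% of all tested genes. The other 4 had means over the 3 libraries of 2.41 (SNAI1), 2.05 (TWIST2), 0.947 (FN1) and 0.122 (ZEB2), under the filter at 2.43, which SNAI1 missed narrowly.

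**Figure D1:**
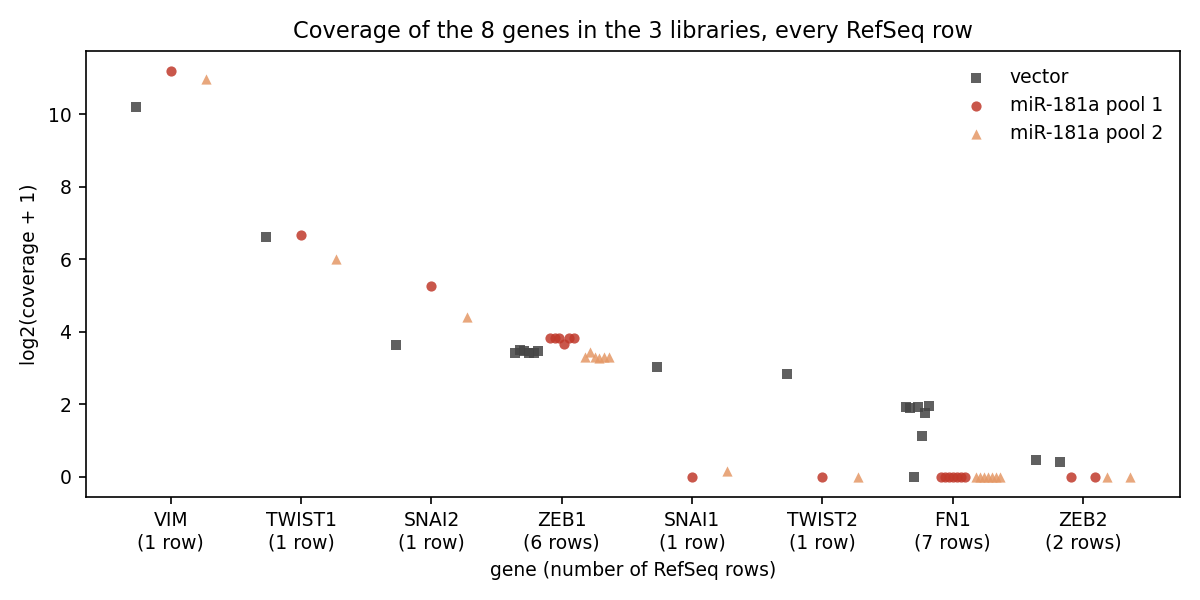
Coverage of the 8 genes as log2(coverage + 1) on the vertical axis, with 1 point per RefSeq row and library (squares, vector; circles, pool 1; triangles, pool 2). VIM lies far above the others, SNAI2 is higher in both pools, and SNAI1, TWIST2, FN1 and ZEB2 lie at or next to 0 in the pools.

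VIM (NM_003380; chromosome 10, 17270240 to 17279592 on GRCh37, 10 exons, protein coding) encodes the main intermediate filament of mesenchymal cells. Its coverage was 1173 with the vector, 2328 in pool 1 and 2007 in pool 2. Both pools stood above the vector library, and the pools lay close to each other. VIM held rank 23 among the 28848 rows in the vector library, rank 10 in pool 1 and rank 7 in pool 2. Vimentin was thus one of the leading transcripts of the vector library as well. The pool mean was 2167 ± 227 (SD, n = 2), and the log2 difference from the vector library was 0.88 (SE 0.42, limma adjusted p = 0.294), above 0 in 2 of 2 pools.

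Genes with a high pool mean were higher in the pools in general, so VIM was set beside genes of a like level. Here and for the other members such genes were chosen by the pool mean alone, as were those used for the shift. That choice favours genes higher in the pools, which limits both comparisons. Among 42 genes with a pool mean within 2 times that of VIM, the median log2 difference was 0.51, and 4 genes (9.52%) had a larger one than VIM. The 3 of them closest to VIM in the pair of log2 differences were GAPDH, the glycolytic dehydrogenase (0.92 in pool 1 and 0.75 in pool 2), and the ribosomal protein genes RPL13A (0.96 and 0.62) and RPLP0 (0.85 and 0.69), against 0.99 and 0.77 for VIM. This closeness rests on 3 libraries and is a description. Each pool was then shifted to set the median ratio of genes with a pool mean above 50 to 1. After this shift the log2 difference of VIM was 0.41 (limma adjusted p = 0.0461), and 710 of the 12552 tested genes were called higher. With library medians set equal the difference of VIM was 1.30 (limma adjusted p = 3.84e-13), and 6355 genes were called higher. Quantile normalization, which the labels name, gave 0.47 (limma adjusted p = 0.116), and VIM passed in 2 of 12 alternatives with a test, with an adjusted p of up to 0.399 in the others.

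**Figure D2:**
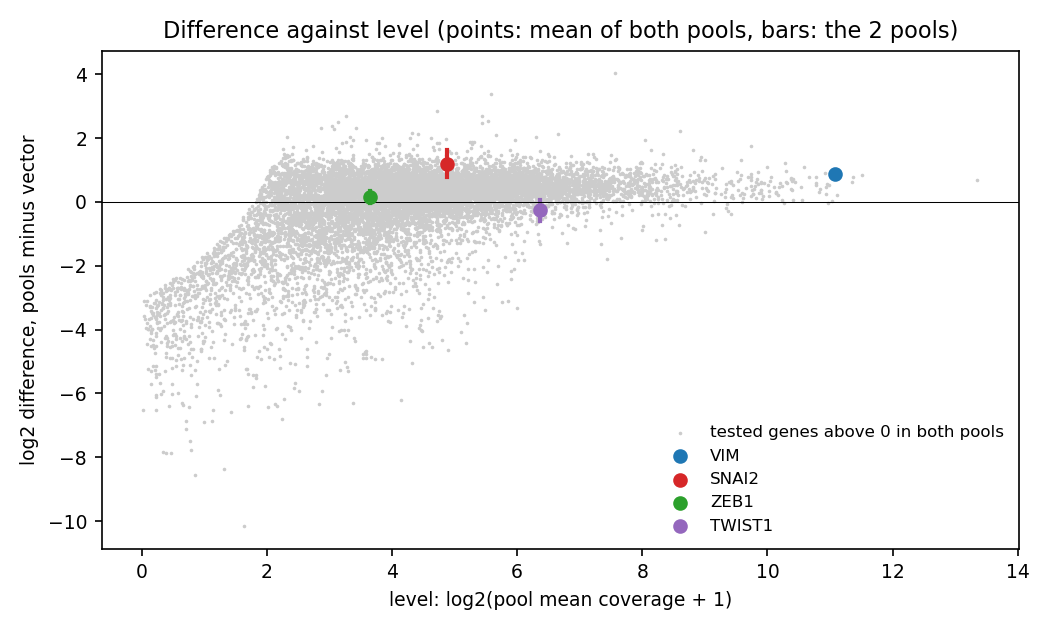
Log2 difference between the pools and the vector library (vertical axis) against level, the log2 of the pool mean coverage plus 1 (horizontal axis), for tested genes above 0 in both pools (grey) and the 4 tested members (points, mean of both pools; bars, the 2 pools). VIM at 0.88 lies in the upper part of the few genes at its level, and TWIST1 at -0.27 lies below most genes at its own.

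Other intermediate filament genes were listed to see how VIM compared with its relatives. Of 19 such genes in the table VIM had the highest coverage in every library, 6.86 times the next gene with the vector, 7.21 times in pool 1 and 8.05 times in pool 2. That next gene was LMNB1, which encodes lamin B1 of the nuclear envelope, at 171, 323 and 249 in the vector library, pool 1 and pool 2. VIM made up 63.8% of the summed coverage of these genes with the vector, 73.6% in pool 1 and 77.02% in pool 2. Of the 13 filament genes tested, none rose and 4 fell by limma, the keratin genes KRT14 and KRT19, and INA and NEFM, which encode filament proteins of neurons, beside 21.7% of all tested genes that fell. KRT14, KRT19 and NEFM were at 0 in both pools, where the spread is 0, and passed the filter only through vector values of 35.3, 17.4 and 7.41.

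The keratins of simple epithelia were present at low levels. KRT8 had a coverage of 27.04 with the vector, 13.4 in pool 1 and 10.5 in pool 2, and KRT18, its partner, had 13.9, 2.38 and 4.91. Neither passed the test (limma adjusted p = 0.178 and 0.17). Summed over 6 keratin genes (KRT5, KRT7, KRT8, KRT14, KRT18 and KRT19), coverage was 94.2 with the vector, 15.8 in pool 1 and 15.4 in pool 2. VIM was 12.5 times this sum with the vector, 147 times in pool 1 and 130 times in pool 2. The ratio therefore moved more through the keratin values of the vector library than through VIM, and the vector library also held values for markers of other cell types that the pools lacked, as given below for SNAI1 and TWIST2.

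**Figure D3:**
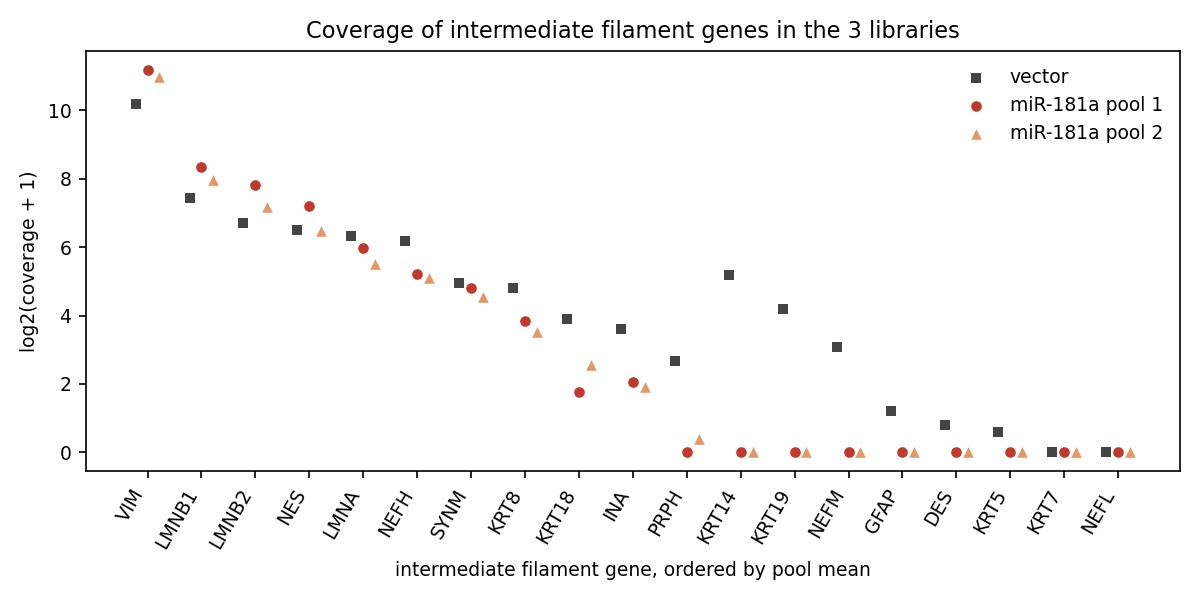
Coverage of 19 intermediate filament genes as log2(coverage + 1), ordered by the pool mean (squares, vector; circles, pool 1; triangles, pool 2). VIM leads in all 3 libraries, and 8 genes, KRT14 and KRT19 among them, are at 0 in both pools, beside 8822 of 28848 RefSeq rows.

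Vimentin filaments are bound and remodelled by cross-linkers, adaptors and kinases. Of 18 such genes measured, 17 were tested, and none rose or fell by limma, beside 1.00% and 21.7% of all tested genes. The median log2 difference of the 17 was 0.35, beside 0.07 over all tested genes. CAPN2, a calcium-dependent protease, had 22.7, 70.5 and 54.2 in the vector library, pool 1 and pool 2 (limma adjusted p = 0.108). Other members were lower in the pools, among them the kinase genes PAK1 at 49.1, 16.5 and 12.8 (adjusted p = 0.0917) and AURKB at 117, 75.2 and 48.0 (adjusted p = 0.264).

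TWIST1 (NM_000474; chromosome 7, 19155091 to 19157259, 2 exons) encodes a basic helix-loop-helix factor of mesoderm and neural crest. Its coverage was 96.0 with the vector, 101 in pool 1 and 62.5 in pool 2. Pool 1 was close to the vector library and pool 2 was lower. TWIST1 exceeded 94.8%, 94.1% and 92.1% of rows in the 3 libraries and was 73.2%, 66.9% and 67.4% of the summed coverage of the 6 factors. The pool mean was 81.8 ± 27.3 (SD, n = 2), and the log2 difference was -0.27 (SE 0.43, limma adjusted p = 0.69), lower in 1 of 2 pools. Among 2133 genes with a pool mean within 2 times that of TWIST1 the median difference was 0.47, and 92.8% had a higher one than TWIST1.

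The direction of TWIST1 turned with the scaling. After the shift by genes above 50 its log2 difference was -0.74 (limma adjusted p = 0.000161), and 5784 of the 12552 tested genes were called lower. With library medians set equal the difference of TWIST1 was 0.15 (limma adjusted p = 0.448). The genes nearest to TWIST1 in the pair of log2 differences were MAP4, which encodes a microtubule-associated protein, ACOT2, a mitochondrial thioesterase gene, and the splicing factor gene SF1, at distances of 0.019 to 0.049 log2 units.

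SNAI2 (NM_003068; chromosome 8, 49830157 to 49833988, 3 exons) encodes Slug, a repressor known from neural crest and from carcinoma cells of mesenchymal form. Its coverage was 11.4 with the vector, 37.0 in pool 1 and 20.2 in pool 2. Both pools stood above the vector library, pool 1 further than pool 2. The pool mean was 28.6 ± 11.8 (SD, n = 2), and the log2 difference was 1.20 (SE 0.54, limma adjusted p = 0.278), the largest upward one of the 4 tested genes and higher in 2 of 2 pools, at 1.62 and 0.78. Among 4206 genes with a pool mean within 2 times that of SNAI2 the median difference was 0.34, and 2.83% had a larger one.

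SNAI2 also differed between the pools by more than most genes did. Pool 2 was lower than pool 1 by a log2 difference of -0.84, where 88.8% of the 10818 tested genes above 0 in both pools were lower in pool 2, with a median of -0.32, and 3.65% were further down than SNAI2. The same difference was -0.69 for TWIST1, -0.38 for ZEB1 and -0.21 for VIM. These are single libraries, so there is no test of it. SNAI2 passed the limma test in 4 of 12 alternatives with a test: with the pools shifted by the ratio of genes above 50 (log2 difference 0.73, adjusted p = 0.00136), with library medians set equal (1.62, adjusted p = 1.36e-13), with quantile normalization (1.74, adjusted p = 0.0494) and among genes above 0 in both pools (1.20, adjusted p = 0.049). In the other 8 the limma adjusted p reached up to 0.322. Of the 12552 tested genes limma called 6355 higher with medians set equal, 4686 with quantile normalization and 710 with the pools shifted. The genes nearest to SNAI2 in the pair of log2 differences were SMAD5, which encodes a transducer of BMP signals, WTIP, which encodes a LIM domain protein, and NCS1, which encodes a neuronal calcium sensor, at distances of 0.12 to 0.15 log2 units.

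**Figure D4:**
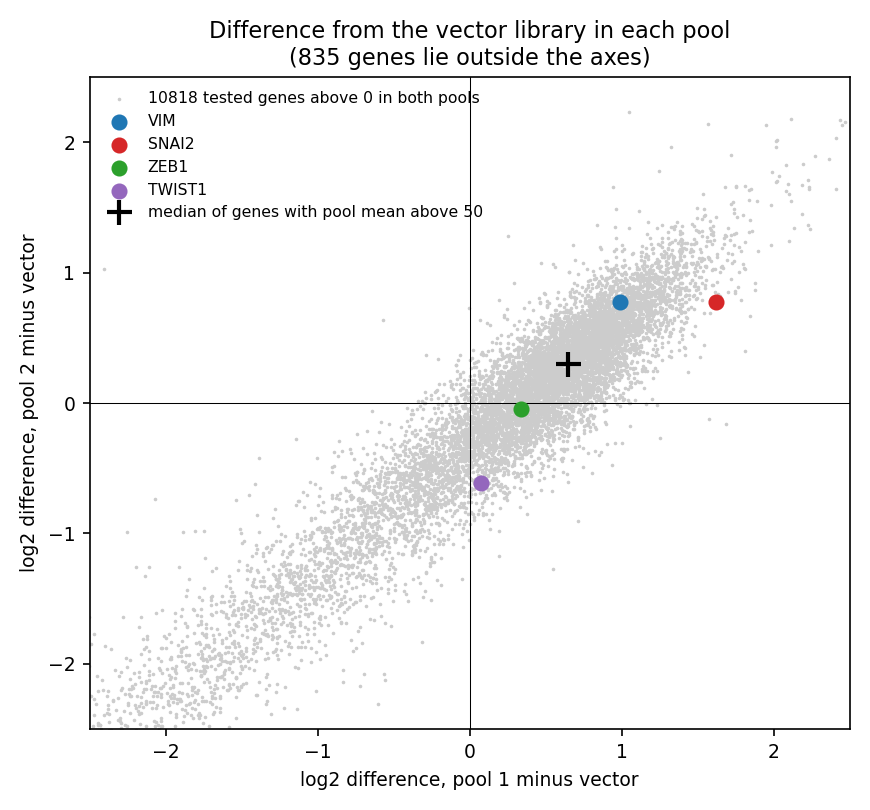
Log2 difference from the vector library in pool 1 (horizontal axis) and in pool 2 (vertical axis) for the 10818 tested genes above 0 in both pools (grey) and the 4 tested members; the cross marks the median of genes with a pool mean above 50, and 835 genes lie outside the axes. VIM and SNAI2 lie above the cross in both pools, and ZEB1 and TWIST1 below it.

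ZEB1 (chromosome 10, 31608145 to 31818732, 9 exons), a repressor that forms a well-known feedback loop with the miR-200 family, had 6 RefSeq rows. Their coverage was 9.64 to 10.2 in the vector library, 11.5 to 13.2 in pool 1 and 8.64 to 9.89 in pool 2. Every row was slightly higher in pool 1 and slightly lower in pool 2 than in the vector library. The 6 rows hold 4 distinct sets of values, since they share most of their sequence, and they are not replicates. The row used for the test, NM_001174093, had 10.2, 13.2 and 9.89, with a pool mean of 11.5 ± 2.31 (SD, n = 2) and a log2 difference of 0.15 (SE 0.35, limma adjusted p = 0.785).

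ZEB1 sat in the middle of genes of its level. Among 4415 genes with a pool mean within 2 times that of ZEB1 the median difference was 0.15, and 50.3% had a larger one. Its sign depended on the scaling: -0.32 with the pools shifted by the ratio of genes above 50 (limma adjusted p = 0.256), 0.56 with medians set equal (adjusted p = 0.0223) and 0.85 with quantile normalization (adjusted p = 0.032). With medians set equal and with quantile normalization limma called 6355 and 4686 of the 12552 tested genes higher. F8A3, HERPUD2 and MAPKSP1, whose product anchors signalling complexes at late endosomes, were nearest to ZEB1 in the pair of log2 differences.

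In both pools the order of the factors was TWIST1, SNAI2, ZEB1. The lowest TWIST1 value (62.5) was above the highest of SNAI2 (37.0), and the lowest of SNAI2 (20.2) above the highest of ZEB1 (13.2). In the single vector library SNAI2 and ZEB1 were nearly level, with a ratio of 1.11, against 2.81 in pool 1 and 2.04 in pool 2. TWIST1 was 8.45 times SNAI2 with the vector, 2.74 times in pool 1 and 3.09 times in pool 2. Summed over the 6 factors, coverage was 131 with the vector, 151 in pool 1 and 92.7 in pool 2, so the pools lay on both sides of the vector library.

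The other 3 factors and fibronectin had low vector values and little or nothing in the pools. SNAI1 (NM_005985; chromosome 20, 48599517 to 48605423, 3 exons), the repressor Snail, had 7.11 with the vector, 0 in pool 1 and 0.121 in pool 2. TWIST2 (NM_057179; chromosome 2, 239756726 to 239832230, 2 exons), the paralogue of TWIST1 known from dermis, had 6.15 with the vector and 0 in both pools. ZEB2 (chromosome 2, 145141648 to 145277686, 10 exons), the paralogue of ZEB1, had 2 rows, at 0.367 and 0.328 with the vector and 0 in both pools. No fold is given for genes listed at 0.

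FN1 (chromosome 2, 216225588 to 216300791, 46 exons in the MANE Select transcript) had 7 RefSeq rows, all listed at 0 in both pools. In the vector library NM_212482 had 2.84, NM_002026 and NM_212475 had 2.79 each, NM_054034 had 2.71, NM_212478 had 2.36, NM_212476 had 1.16 and NM_212474 was at 0. No row of this large matrix gene therefore reached 3 in any library, while VIM was at 1173 or more in all of them.

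These vector values were of a size that the vector library gave to many transcripts listed at 0 in the pools. Of the 8822 rows at 0 in both pools, 24.3% had a vector value at least as high as that of TWIST2 and 37.9% one at least as high as that of NM_212482, the highest FN1 row. The shares were 57.7% and 58.2% for the ZEB2 rows, and 21.7% for the value of SNAI1, which was at 0 in pool 1 alone. The median vector value of such rows was 1.15 and the 90th percentile 16.8. Without the filter on low values, limma called SNAI1, TWIST2, FN1 and ZEB2 lower, among 5626 genes called lower in that setting. SNAI1 alone of the 8 was also called lower with rows chosen without the vector value and with the mean of the rows. All genes called lower numbered 2319 and 2490 in these settings. The filter let SNAI1 pass there only through its vector value. In the fit without a filter the spread between the pools is 0 for genes at 0 in both, so the call is formal.

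**Figure D5:**
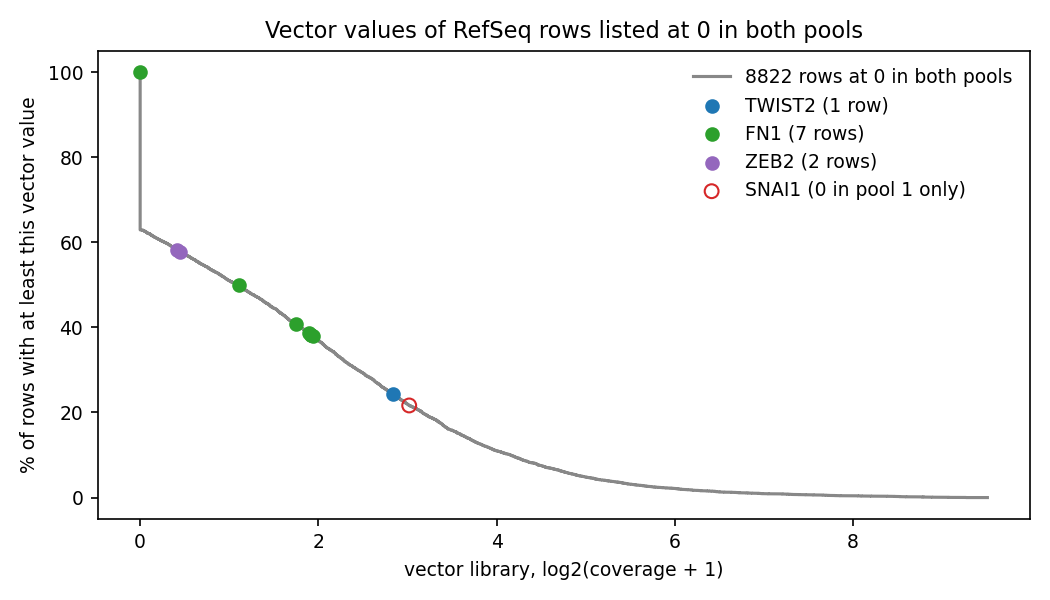
Share of the 8822 RefSeq rows at 0 in both pools (vertical axis, %) that have at least a given value in the vector library (horizontal axis, log2(coverage + 1)), with the rows of TWIST2, FN1 and ZEB2 marked and the value of SNAI1 as an open circle. All marked rows lie where at least 21.7% of such rows have as high a vector value.

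Markers of other cell types moved with these values. Over 11 endothelial markers coverage summed to 269 with the vector, 0.518 in pool 1 and 0.297 in pool 2, with CDH5, KDR and VWF at 0 in both pools and 8 of the 11 at 0 there. Over 13 immune markers it summed to 99.9, 4.01 and 4.72, with PTPRC and 7 others at 0 in both pools. Their part in the vector values of SNAI1, TWIST2, ZEB2 and FN1 was not tested. In bulk libraries fewer cells of a type and less RNA per cell cannot be told apart.

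Fibroblast markers were split in direction. Over 15 such markers coverage summed to 842 with the vector, 2081 in pool 1 and 1720 in pool 2, led by the collagen gene COL3A1 at 249, 986 and 717 and the proteoglycan gene DCN at 144, 480 and 420. None of the 12 tested rose by limma and 3 fell, ACTA2, DPT and PDPN, beside 21.7% of all tested genes that fell. By the size rule 4 of the 12 were higher and 4 lower, beside 2.53% and 27.3% of all tested genes. DPT and PDPN, both at 0 in the pools, were tested because of the vector library alone, at 14.4 and 16.8. COL1A1, another collagen gene, had 7.41, 0 and 0.706, POSTN had 137, 112 and 137, and FAP was at 0 in all 3 libraries. THY1, a surface protein of fibroblasts and stem cells, had 4.87, 26.7 and 13.8 (limma adjusted p = 0.204). The part of these markers in the VIM and SNAI2 values was not tested.

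The epithelial label of the series was checked against markers. Of 16 epithelial markers 11 were at 0 in both pools, and CDH1, KRT7, GRHL2, ST14 and RAB25 were at 0 in all 3 libraries. Of 12 markers of the ovarian carcinoma lineage 8 were at 0 in both pools, WT1 and SOX17 in all 3. VIM at this level and CDH1 at 0 were thus the state of the vector library as well as of the pools.

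The genes that SNAI and ZEB proteins are known to repress were mostly at or near 0 in the pools, where their coverage summed to 37.7 and 37.03, against 356 with the vector. Of 30 such genes measured, 20 were at 0 in both pools, beside 8822 of 28848 RefSeq rows, and 10 were tested. By limma none rose and 8 fell (EPCAM, SPINT1, CLDN7, DSP, MUC1, MARVELD3, KLF5 and INADL), beside 21.7% of all tested genes. EPCAM, SPINT1, CLDN7 and DSP were at 0 in both pools, so the filter fixed their direction. MARVELD3 (0.313 and 0.39) and KLF5 (0.134 and 0.1525) were under the filter at 2.43 in both pools. They passed it only through their vector values, so their direction was fixed as well. Among tested genes above 0 in both pools 9.35% fell. INADL, which encodes a tight junction scaffold, had 36.9 with the vector, 4.93 in pool 1 and 4.42 in pool 2 (log2 difference -2.74, SE 0.26, limma adjusted p = 0.0309). MUC1, an epithelial mucin gene, had 59.3, 2.72 and 3.00, but with the row chosen without the vector value its log2 difference was 0.57.

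Other transcription factors linked to EMT were compared next. Of 36 measured, 23 were tested, none rose and 2 fell by limma, FOSL1 and SOX9, beside 21.7% of all tested genes that fell. Of the 36, 11 were at 0 in both pools, beside 8822 of 28848 RefSeq rows. FOSL1, an AP-1 subunit gene, had 11.6 in the vector library and 0.126 in each pool. SOX9, which encodes a factor of cartilage and of epithelial progenitors, had 25.6 and was at 0 in both pools. FOSL1 and SOX9 each passed the filter only through the vector value, which fixed their direction. The list median was 0.18. ID1, an inhibitor of basic helix-loop-helix factors, had 23.9, 50.8 and 41.6 in the vector library, pool 1 and pool 2 (limma adjusted p = 0.166).

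The corepressors and enzymes that SNAI, ZEB and TWIST proteins recruit were mostly present in all libraries. Of 27 measured, 25 were tested and none rose or fell by limma, beside 1.00% and 21.7% of all tested genes. The list median was 0.36. LOXL3 was at 0 in all 3 libraries and KAT2B had 0.784, 1.98 and 1.04, and neither was tested. HDAC1, a histone deacetylase, had 115, 203 and 180, and KDM1A, the histone demethylase that SNAI1 binds, had 65.4, 89.9 and 71.0. LOXL2, a lysyl oxidase reported to stabilise Snail, had 13.1, 38.1 and 32.6 (log2 difference 1.37, SE 0.25, limma adjusted p = 0.0947). EZH2, the Polycomb methyltransferase, had 68.5, 34.8 and 31.1, but its log2 difference turned from -1.04 to 0.41 with the row chosen without the vector value.

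Enzymes that set the stability of these factors were tested for 25 of 26 genes, and none rose or fell by limma (list median 0.16). Over all tested genes 1.00% rose and 21.7% fell. GSK3B, the kinase that marks Snail for degradation, had 34.6 with the vector, 19.3 in pool 1 and 10.9 in pool 2 (limma adjusted p = 0.263). FBXL14, a ubiquitin ligase subunit for Snail, had 16.5, 4.82 and 3.77 (adjusted p = 0.0598), and FBXL5, another such subunit, had 6.71, 19.8 and 17.1 (adjusted p = 0.126). These differences point in different directions and none passed the test.

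Some fibronectin receptor subunits were present in the pools, where FN1 was listed at 0, and ITGB3, ITGA4, ITGA8 and ITGB6 were at 0 there. ITGB1, the integrin beta subunit shared by the main fibronectin receptors, had 184, 350 and 290 in the vector library, pool 1 and pool 2. ITGA5, its classical fibronectin partner, had 12.7, 26.7 and 17.8, and ITGAV had 73.9, 199 and 157 (limma adjusted p = 0.115). Of 28 receptor and matrix assembly genes 20 were tested, none rose and 3 fell, ITGB6, TNC and ITGA8, beside 21.7% of all tested genes. All 3 were at 0 in both pools, so the filter fixed their direction. The list median was 0.33.

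Splicing factors that act on the alternative exons of FN1 and of EMT genes included the epithelial regulators ESRP1 and ESRP2, at 4.46 and 0.29 with the vector and 0 in both pools. Of 15 factors 13 were tested, none rose and 1 fell, RBM47, which had 8.93, 1.30 and 1.39 (log2 difference -2.08, SE 0.037, limma adjusted p = 0.00113), beside 21.7% of all tested genes that fell. RBM47 was under the filter at 2.43 in both pools and passed it only through its vector value, which fixed its direction. QKI, a splicing factor induced in EMT, had 46.3, 75.2 and 59.8 and did not pass the test.

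Signals upstream of the factors were tested for 23 of 31 genes. None rose and 2 fell by limma, SMAD7, with the values given above (log2 difference -4.44, SE 0.19, adjusted p = 0.00665), and EGFR, the epidermal growth factor receptor gene, with 13.8, 0.406 and 0.185. Over all tested genes 21.7% fell. SMAD7 and EGFR were under the filter at 2.43 in both pools and passed it only through their vector values, so the filter fixed their direction. TGFBR1, a TGF-beta receptor gene, had 8.07, 16.6 and 14.0, and CTNNB1, which encodes beta-catenin, had 106, 261 and 236 (limma adjusted p = 0.0736). The Notch ligand gene JAG1 had 69.5, 19.1 and 13.5 (adjusted p = 0.0834). The list median was 0.30, beside 0.07 over all tested genes. With the pools shifted by the ratio of genes above 50, the medians of 7 of the 9 lists turned below 0.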

How the data were processed

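Poly-A RNA of 3 libraries was sequenced. The authors aligned reads to hg19 and deposited a coverage signal per RefSeq transcript, the median density over 50 bp windows, per the labels' protocols. The aligner is not given in the sources used here. Per the labels the coverage was log-transformed and quantile-normalized, yet the deposited signal is linear with quantiles that differ between libraries. Rows without a vector value (308, none of the 8 genes) were left out, and 52 of 54 symbols turned into dates were restored by accession. A gene with several rows was represented by its highest one, by the mean of the 3 libraries. Genes above the 25th percentile of such means, leaving out genes at 0 throughout (above 2.43; 12552 genes), were tested on log2(coverage + 1) with limma 3.58.1 in R 4.3.3 (eBayes with a variance trend, Benjamini-Hochberg adjustment), with 1 residual degree of freedom. It comes from the pools, and the single vector library is taken to vary like them. The script was tested on simulated data. Lists that name genes by newer symbols were matched by accession. Seed matches used GENCODE 44 transcripts on GRCh37 (the assembly of hg19), matched by symbol for 87.2% of tested genes. The members and lists were chosen with earlier results of these data known. Genes named from a list are examples among up to 4 with the largest difference in 1 direction in both pools and up to 4 past the test, beside genes named for their role, chosen after their values were seen. Alternatives covered filter, scaling, pseudocount, row choice, variance model, size rule and each pool left out. The authors' ratio columns were not used.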

Additional observations from a re-analysis of the deposited data

How the results depend on the processing

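No paired analysis was possible because the vector group has a single library. In the main setting limma called 126 of the 12552 tested genes higher and 2725 lower. It called 278 and 5626 with no low-value filter, 402 and 1476 with the filter at the median, and 710 and 5784 with the pools shifted by the ratio of genes above 50. The number called higher was 6355 with medians set equal, 4686 with quantile normalization, 216 with every RefSeq row fitted and 447 among genes above 0 in both pools. By the size rule 318 genes were higher and 3430 lower. The number higher was 2188 with medians set equal, 3068 with quantile normalization, 61 with the pools shifted, 506 and 63 with pseudocounts of 0.1 and 10, 635 over every row, 1709 with a smaller size rule of 1.5-fold and 15 with one of 2 log2 units. The number lower was 5718 with no filter, 1428 with the filter at the median, 2282 with a pseudocount of 10 and 1697 among genes above 0 in both pools. Without pool 1 and without pool 2 (1 library against 1, no test) 356 and 1305 genes were higher by the size rule, and 3859 and 3464 lower.

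Of the 8 genes, limma called 0 in the main setting. It called 4 lower with no filter (3 by the size rule) and 1 lower, SNAI1, with the row chosen without the vector value and with the mean of the rows (1 by the size rule in each). It called 3 higher with medians set equal (2 by the size rule) and 2 higher with quantile normalization (1 by the size rule). It called 2 higher and 1 lower with the pools shifted, and 1 higher among genes above 0 in both pools. Over all 12552 tested genes these 3 scalings called 6355, 4686 and 710 higher. Over all genes limma called 5626 lower with no filter, 2319 with the row chosen without the vector value and 2490 with the mean of the rows. With the size rule of 1.5-fold, 2 of the 8 were higher. Without pool 2, 1 gene, SNAI2, was higher by the size rule, and without pool 1 none was. The log2 difference turned to 0.15 for TWIST1 with medians set equal, to -0.32 for ZEB1 with the pools shifted, and to 0.41 for EZH2 and 0.57 for MUC1 with the row chosen without the vector value. Scaling also removes the offset between the pools from the spread that the test uses. The cause of the changes between settings was not tested. VIM and SNAI2 stayed above 0 in every alternative run, VIM at 0.41 to 1.30 and SNAI2 at 0.73 to 1.74. Coverage without counts limits what can be said of SNAI1, TWIST2, ZEB2 and FN1.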
